A study of Mus musculus with 4 samples.

Results

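The comparison described here sets Meis1f/f cells against control cells, both given 4-hydroxytamoxifen (4-OHT). It uses 2 of the 4 RNA sequencing libraries of the series, and the other 2, the same genotypes under vehicle, show which differences were there without the drug. All 4 are from bone marrow leukemic cells of C57BL/6 background. Meis1f/f cells were labelled Meis1f/fCreER+/- MLL-AF9-/+ and control cells MLL-AF9-/+, so both carried the MLL-AF9 knock-in. Each library was 1 of 4 groups: Meis1f/f with 1000 nM 4-OHT for 24 h, control with the same 4-OHT, Meis1f/f with vehicle and control with vehicle. SCF, IL-3, GM-CSF and IL-6 were present in the culture medium (10 ng/ml each), with serum at 10% in the design text or 20% in the growth protocol. Of 22072 gene symbols in the files, 10922 reached 1 FPKM in at least 1 library and are described.

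MLL-AF9 is a fusion of the chromatin regulator MLL with AF9 that drives acute myeloid leukaemia and keeps HOXA genes active. MEIS1 is a homeodomain protein of the TALE class that binds DNA together with HOXA9 and PBX proteins and is a cofactor of this leukaemia programme. In blood stem cells of the mouse MEIS1 is known to activate Hif1a, whose product switches on glycolysis and represses entry of pyruvate into mitochondria when oxygen is low. CreER is a recombinase held inactive until 4-OHT binds it, after which it removes the DNA between loxP sites.

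There was 1 library per group, so no difference here has a replicate check, a test or a p-value. A gene was called higher or lower when log2(FPKM + 1) in Meis1f/f cells minus that in control cells was at least 1 in size, called the size rule below. A difference was called absent under vehicle when it was below 0.5 in size between the vehicle libraries. The control cells carried no CreER by their label, so loss of Meis1 and activation of the recombinase cannot be told apart, and whether the cells of a genotype came from 1 animal or several is not stated. Estimated depth was 18.4 M mapped reads in Meis1f/f 4-OHT, 22.2 M in control 4-OHT, 43.1 M in Meis1f/f vehicle and 28.5 M in control vehicle cells. By sheet name the Meis1f/f vehicle cells were sequenced in lane 1 and the others in lane 2, so both 4-OHT libraries shared a lane and the vehicle libraries did not. Across genes, Spearman's rho of transcript length with the genotype difference was 0.025 under 4-OHT and 0.25 under vehicle (10922 genes each, described only). Myeloid markers were high in every library, with Mpo between 710 and 1280 FPKM and Elane between 1351 and 2044 FPKM. Of the lymphoid markers, Cd3e and Pax5 were listed at 0 in all 4 libraries, whereas Cd3g, of the same CD3 complex as Cd3e, was at 2.41 FPKM in Meis1f/f 4-OHT and 0.273 FPKM in control 4-OHT cells. Intervals given below are 95% exact intervals of a ratio of FPKM, they cover counting error only, and FPKM was scaled within each library.

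Meis1 had its lowest level in Meis1f/f 4-OHT cells. It was at 7.38 FPKM in Meis1f/f 4-OHT and 12.1 FPKM in control 4-OHT cells, a ratio of 0.611 (interval 0.545 to 0.683). Under vehicle it was at 11.8 FPKM in Meis1f/f and 11.6 FPKM in control cells, a ratio of 1.02 (0.948 to 1.10). The log2 difference of -0.64 under 4-OHT did not meet the size rule, and the files give reads over the whole transcript, so this is no measure of intact Meis1. The gene is listed on chromosome 11 from 18780430 to 18918972, as deposited, on a build that could not be settled. Hlf, a PAR bZIP transcription factor named with MEIS1 in the study's title, was under the floor of 1 FPKM in every library. Hlf was at 0.160 FPKM in Meis1f/f 4-OHT and 0.531 FPKM in control 4-OHT cells, and at 0.370 and 0.516 FPKM in Meis1f/f and control vehicle cells. Mll1, read from the fused and the normal allele, was at 2.28 and 1.85 FPKM in Meis1f/f and control 4-OHT cells, and at 5.03 and 2.20 FPKM in Meis1f/f and control vehicle cells. Esr1, which encodes oestrogen receptor alpha, was at 2.04 and 2.95 FPKM in Meis1f/f and control 4-OHT cells, and at 2.58 and 3.19 FPKM in Meis1f/f and control vehicle cells.

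Under 4-OHT 406 genes were higher (3.72% of 10922) and 176 lower (1.61%) in Meis1f/f than in control cells. Under vehicle 638 were higher (5.84%) and 230 lower (2.11%). Of the 406 genes higher under 4-OHT, 268 also met the size rule in that direction under vehicle, which is 66% of the 406 and 42% of the 638. Of the 176 genes lower under 4-OHT, 47 were also lower under vehicle, which is 26.7% of the 176 and 20.4% of the 230. Absent under vehicle were 54 of the higher genes (13.3% of them, 0.494% of all genes) and 64 of the lower genes (36.4% of them, 0.586% of all genes). Small RNAs and unnamed gene models made up 13 of those 54 and 16 of those 64. The median difference over all 10922 genes was 0.00 under 4-OHT and -0.06 under vehicle, and 84.4% of genes under 4-OHT and 67.6% under vehicle lay within 0.5 of 0. The vehicle libraries were thus farther apart over all genes than the 4-OHT libraries.

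**Figure D1:**
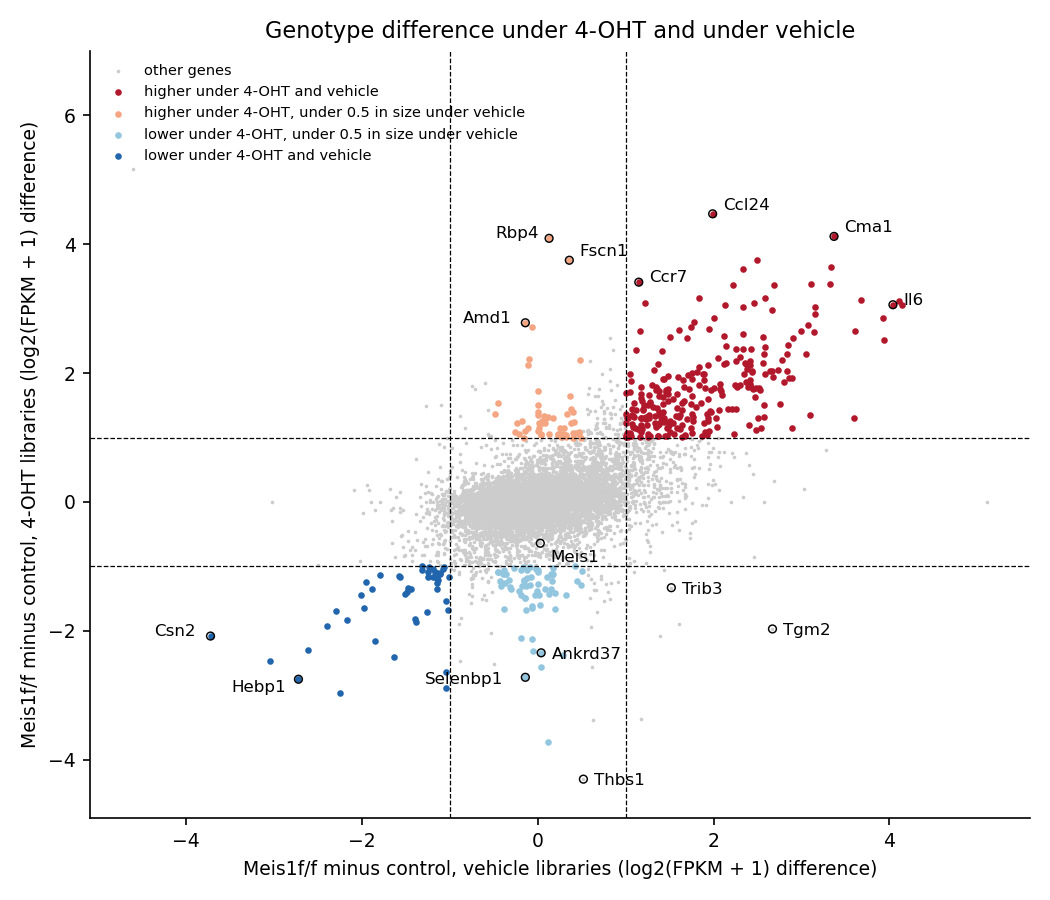
Difference of Meis1f/f minus control in log2(FPKM + 1) between the vehicle libraries (horizontal) and between the 4-OHT libraries (vertical), 1 point per gene, with dashed lines at the size rule of 1. Cma1 and Il6 lie high on both axes, Rbp4, Fscn1 and Amd1 are high on the 4-OHT axis and near 0 on the vehicle axis, Selenbp1 and Ankrd37 are low on the 4-OHT axis and near 0 on the vehicle axis, and Tgm2 and Trib3 lie on opposite sides of 0.

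Of the 35 lists, those with the lowest median differences under 4-OHT were HIF targets, glycolysis enzymes and cholesterol synthesis enzymes. The highest medians were those of the mast cell, erythroid, eosinophil and dendritic cell lists. All lists were drawn up with earlier results of these data known, so their counts and medians are descriptions only. The order by number of members past the size rule was not the same: 2 of 25 cholesterol genes were lower, against 8 of 46 monocyte and macrophage genes, and 8 of 11 eosinophil genes were higher, against 11 of 24 chemokine genes. A list is described by how many of its members over the floor met the size rule and by its median difference, beside the 3.72% and 1.61% of all genes and the median of 0.00.

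**Figure D2:**
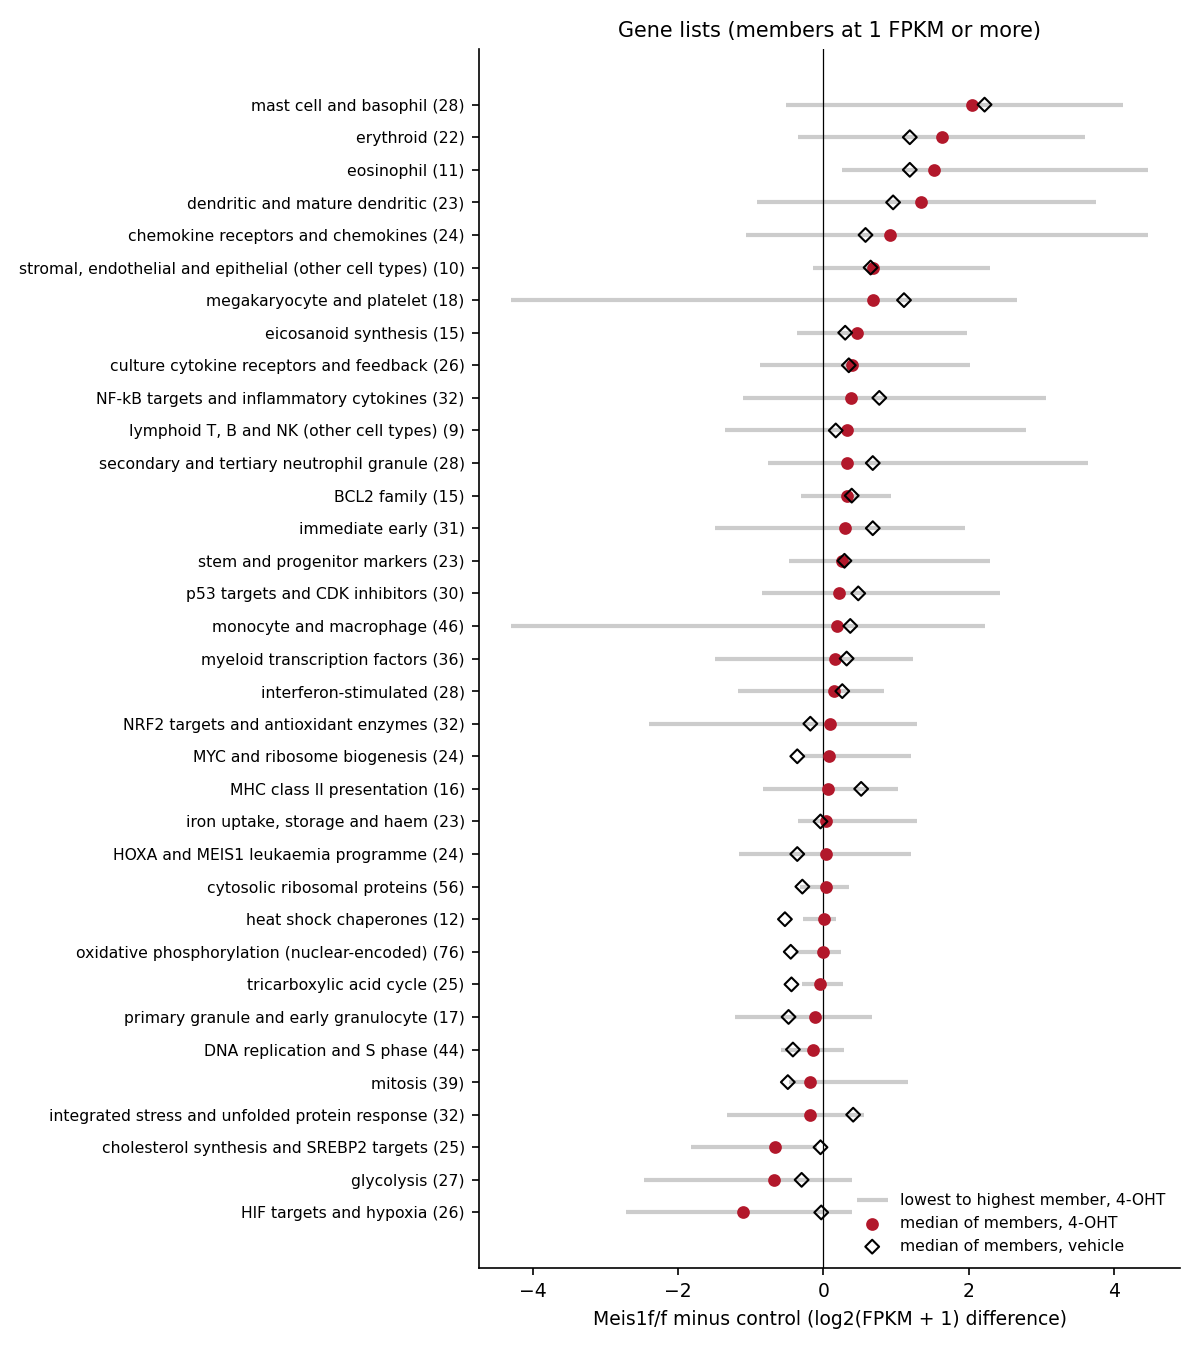
Median log2(FPKM + 1) difference of Meis1f/f minus control over the members of each list, under 4-OHT (red circles) and under vehicle (open diamonds), with the span of members under 4-OHT in grey and the number of members in brackets. The HIF list has a median of -1.11 under 4-OHT and -0.03 under vehicle, and the mast cell list has medians of 2.04 and 2.22.

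Many HIF target genes were lower in Meis1f/f than in control cells under 4-OHT, and most of these differences were absent under vehicle. Of 26 members over the floor 14 were lower by the size rule and 0 higher, the median difference was -1.11, and 25 of the 26 were below 0. Between the vehicle libraries 1 was lower and 2 were higher, with a median of -0.03. Of the 14 lower members 10 were absent under vehicle. Hif1a itself, which encodes the oxygen-regulated subunit, was at 71.6 FPKM in Meis1f/f 4-OHT and 58.8 FPKM in control 4-OHT cells, a difference of 0.28 that did not meet the size rule (Hif1a was chosen after its values were seen).

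The members with the largest differences were Selenbp1, Bnip3, Ankrd37 and Egln3. Selenbp1, a selenium-binding methanethiol oxidase whose place among HIF targets is less established, was at 9.76 FPKM in Meis1f/f 4-OHT and 69.9 FPKM in control 4-OHT cells, 7.16-fold lower (interval 6.36 to 8.10), and at 40.1 and 44.3 FPKM in Meis1f/f and control vehicle cells. Bnip3, a mitophagy receptor, was at 41.4 FPKM in Meis1f/f 4-OHT and 260 FPKM in control 4-OHT cells, 6.30-fold lower (5.95 to 6.67), and at 69.99 and 145 FPKM in Meis1f/f and control vehicle cells. For Selenbp1 the vehicle libraries lay close together between the 4-OHT libraries, while Bnip3 was lower in Meis1f/f cells in both comparisons. Ankrd37, an ankyrin repeat protein, was at 1.73 FPKM in Meis1f/f 4-OHT and 12.8 FPKM in control 4-OHT cells, 7.43-fold lower (5.0 to 11.2), and at 2.68 and 2.56 FPKM in Meis1f/f and control vehicle cells. Egln3, a prolyl hydroxylase that marks HIF subunits for destruction, was at 39.6 FPKM in Meis1f/f 4-OHT and 128 FPKM in control 4-OHT cells, 3.22-fold lower (3.07 to 3.39), and at 39.3 and 34.1 FPKM in Meis1f/f and control vehicle cells. For Ankrd37 and Egln3 it was the control 4-OHT library that stood above the other 3. Each of the 14 lower members had its highest level in the control 4-OHT library. Summed over the 26 members, the list was at 710 and 1673 FPKM in Meis1f/f and control 4-OHT cells. Between the vehicle libraries the sums were 1129 and 1008 FPKM in Meis1f/f and control cells.

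HIF binds the core letters ACGTG or GCGTG in DNA, so the bases before the start of these genes are shown for the members with the largest differences. Each run is the 250 bases before the start from RefSeq (build GRCm38.p6), 5′ to 3′ on the gene's strand, with each match to ACGTG or GCGTG on either strand in capitals. Matches can overlap, and a palindromic match holds ACGTG on both strands. The windows are chr3:94932833-94933082 on the plus strand for Selenbp1, and on the minus strand chr7:138909507-138909756 for Bnip3, chr8:45999851-46000100 for Ankrd37 and chr12:54203875-54204124 for Egln3.
Selenbp1: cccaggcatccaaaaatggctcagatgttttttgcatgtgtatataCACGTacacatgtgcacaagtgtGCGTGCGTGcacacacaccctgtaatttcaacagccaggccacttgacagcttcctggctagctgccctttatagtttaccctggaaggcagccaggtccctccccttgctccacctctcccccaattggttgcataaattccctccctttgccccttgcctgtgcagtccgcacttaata
Bnip3: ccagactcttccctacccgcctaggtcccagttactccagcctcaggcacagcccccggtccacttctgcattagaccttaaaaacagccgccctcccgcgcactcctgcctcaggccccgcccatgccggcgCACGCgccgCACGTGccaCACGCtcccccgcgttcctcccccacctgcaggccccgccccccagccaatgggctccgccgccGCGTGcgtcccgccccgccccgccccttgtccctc
Ankrd37: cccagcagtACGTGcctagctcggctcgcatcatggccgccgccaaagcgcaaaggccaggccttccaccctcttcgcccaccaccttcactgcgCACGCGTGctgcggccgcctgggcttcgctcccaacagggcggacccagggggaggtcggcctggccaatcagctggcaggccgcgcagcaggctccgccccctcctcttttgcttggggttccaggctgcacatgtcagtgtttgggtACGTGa
Egln3: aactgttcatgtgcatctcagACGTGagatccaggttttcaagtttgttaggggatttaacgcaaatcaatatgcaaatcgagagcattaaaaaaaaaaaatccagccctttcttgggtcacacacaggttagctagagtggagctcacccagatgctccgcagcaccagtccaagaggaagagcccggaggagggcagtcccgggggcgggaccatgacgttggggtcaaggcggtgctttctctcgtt
Of the 14 lower HIF list members 12 had such a window, and 10 of these 12 (83.3%) held ACGTG or GCGTG on either strand. Of the members that were not lower by the size rule, 8 of 10 (80%) did. Over all 27025 windows the share was 38.6% (16.6% with ACGTG and 28.2% with GCGTG). The lower members thus held these letters at about the same share as the members that were not lower. Vegfa, whose product drives the growth of vessels, had neither in this window.

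The remaining lower members act in blood vessel growth, collagen modification, glucose uptake and mitochondrial control. Vegfa was at 6.69 FPKM in Meis1f/f 4-OHT and 23.0 FPKM in control 4-OHT cells, 3.44-fold lower (3.10 to 3.84), and at 9.12 and 9.65 FPKM in Meis1f/f and control vehicle cells. Pdk1, the kinase that blocks pyruvate dehydrogenase, was at 17.8 and 44.2 FPKM in Meis1f/f and control 4-OHT cells, and at 17.2 and 29.6 FPKM in Meis1f/f and control vehicle cells. Egln1, the main HIF prolyl hydroxylase, was at 20.0 and 48.5 FPKM in Meis1f/f and control 4-OHT cells, and at 18.9 and 28.3 FPKM in Meis1f/f and control vehicle cells. Pdk1 and Egln1 were also lower under vehicle, by less than the size rule. Ndrg1, a stress-responsive protein, was at 16.5 and 51.3 FPKM in Meis1f/f and control 4-OHT cells but at 34.8 and 16.9 FPKM in Meis1f/f and control vehicle cells, so its difference changed sign. The others were P4ha2 and Plod2 (collagen hydroxylases), Slc2a1, Gys1 (glycogen synthase), Fam162a and Ero1l (an oxidoreductase of the endoplasmic reticulum), with differences from -1.35 to -1.07. Pfkfb3, a stimulator of glycolysis, was the 1 member above 0, at 22.8 and 17.1 FPKM in Meis1f/f and control 4-OHT cells. Members named in this paragraph other than Vegfa and Slc2a1 were chosen after their values were seen.

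Some genes of glycolysis were lower as well, with a median nearer 0. Of 27 members over the floor 7 were lower and 0 higher by the size rule under 4-OHT, with a median of -0.68 and 23 members below 0. Under vehicle 1 was lower and 1 higher, with a median of -0.30. Slc16a3, the lactate exporter MCT4, was at 28.5 FPKM in Meis1f/f 4-OHT and 163 FPKM in control 4-OHT cells, 5.70-fold lower (5.38 to 6.04), and at 34.4 and 64.3 FPKM in Meis1f/f and control vehicle cells. With its 3 transcript rows summed its difference was -1.87 and not -2.47. Slc2a1, the glucose transporter GLUT1, was at 36.9 FPKM in Meis1f/f 4-OHT and 96.0 FPKM in control 4-OHT cells, 2.60-fold lower (2.46 to 2.74), and at 28.6 and 35.6 FPKM in Meis1f/f and control vehicle cells. For both transporters the control 4-OHT library was the highest of the 4. Pgk1, phosphoglycerate kinase, was at 465 FPKM in Meis1f/f 4-OHT and 1111 FPKM in control 4-OHT cells, 2.39-fold lower (2.35 to 2.43), and at 945 and 1220 FPKM in Meis1f/f and control vehicle cells. Aldoc, an aldolase, was at 12.7 FPKM in Meis1f/f 4-OHT and 38.1 FPKM in control 4-OHT cells, 2.99-fold lower (2.68 to 3.36), and at 58.9 and 32.8 FPKM in Meis1f/f and control vehicle cells. For Pgk1 and Aldoc it was the Meis1f/f 4-OHT library that was lowest. Tpi1, Pfkl and Pgm2 were the other lower members, with differences from -1.18 to -1.07. Slc2a1, Pfkfb3 and Pfkfb4 belong to both this list and the HIF list.

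**Figure D3:**
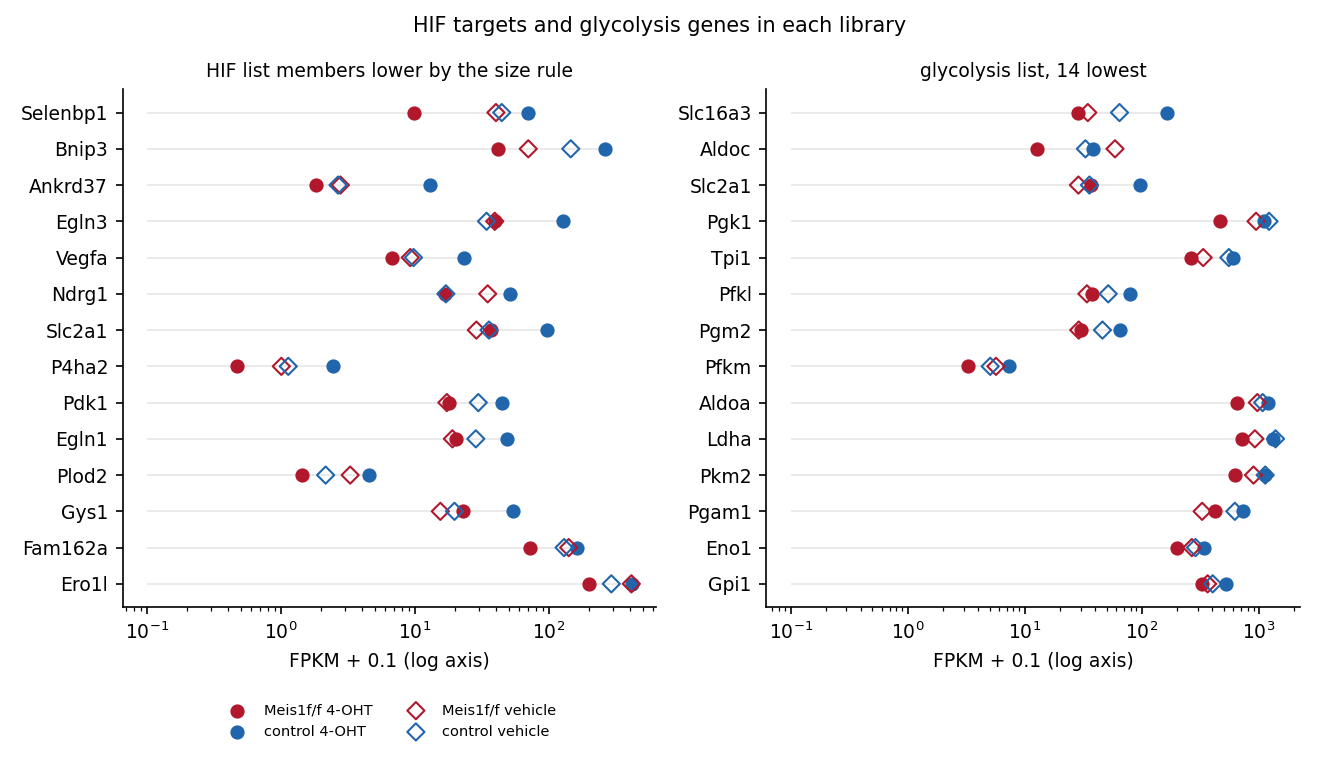
FPKM + 0.1 on a log axis of the 14 lower HIF list members and of the 14 lowest glycolysis members, with filled circles for 4-OHT and open diamonds for vehicle, red for Meis1f/f and blue for control. For Egln3, at 39.6 FPKM in Meis1f/f 4-OHT and 128 FPKM in control 4-OHT cells, the control 4-OHT point lies to the right of the other 3, and for Pgk1 the Meis1f/f 4-OHT point lies to the left.

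Genes of mitochondrial oxidation did not move with glycolysis between the 4-OHT libraries. None of 76 nuclear-encoded oxidative phosphorylation genes met the size rule, their median was 0.00 and the members lay between -0.39 and 0.24. The median of the 25 tricarboxylic acid cycle genes was -0.05, also with 0 members past the size rule. Under vehicle the medians of these lists were -0.45 and -0.44, with 0 members past it. Ndufv3, a complex I subunit, had the largest difference among the oxidative phosphorylation genes and was at 77.0 and 101 FPKM in Meis1f/f and control 4-OHT cells, and at 92.6 and 101 FPKM in Meis1f/f and control vehicle cells. Pdha1, the pyruvate dehydrogenase subunit that PDK1 inhibits, was at 54.6 and 67.1 FPKM in Meis1f/f and control 4-OHT cells, and at 46.3 and 70.7 FPKM in Meis1f/f and control vehicle cells.

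All 25 genes of cholesterol synthesis and SREBP2 control were below 0 under 4-OHT, with a median of -0.67. By the size rule 2 of them were lower and 0 higher, and under vehicle 2 were lower and 2 higher with a median of -0.04. Insig1, which retains the SREBP complex in the endoplasmic reticulum, was at 35.5 FPKM in Meis1f/f 4-OHT and 72.3 FPKM in control 4-OHT cells, 2.03-fold lower (1.92 to 2.15), and at 72.6 and 53.8 FPKM in Meis1f/f and control vehicle cells. The Insig1 difference was absent under vehicle. Scd1, the stearoyl-CoA desaturase that makes monounsaturated fatty acids, was at 19.0 FPKM in Meis1f/f 4-OHT and 52.9 FPKM in control 4-OHT cells, 2.78-fold lower (2.63 to 2.94), and at 46.7 and 42.6 FPKM in Meis1f/f and control vehicle cells. Scd1 was lowest in the Meis1f/f 4-OHT library, and its close paralogs may share reads with it.

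Among 32 genes of the integrated stress and unfolded protein response 2 were lower and 0 higher, with a median of -0.19, against 9 higher and 0 lower with a median of 0.41 under vehicle. Trib3, a pseudokinase induced by ATF4, was at 5.68 FPKM in Meis1f/f 4-OHT and 15.8 FPKM in control 4-OHT cells, 2.77-fold lower (2.38 to 3.25), but at 32.5 and 10.6 FPKM in Meis1f/f and control vehicle cells. Nupr1, a stress-induced chromatin protein, was at 3.75 and 10.1 FPKM in Meis1f/f and control 4-OHT cells, and at 16.7 and 14.9 FPKM in Meis1f/f and control vehicle cells. Trib3 met the size rule in opposite directions in the 2 comparisons, and the Nupr1 difference was absent under vehicle.

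Markers of other myeloid and erythroid types differed between the same libraries as these metabolic genes. Of 28 mast cell and basophil markers over the floor 21 were higher in Meis1f/f 4-OHT cells. Mcpt2 and Mcpt4, chosen after their values were seen, were listed at 0 in control 4-OHT cells, where Cpa3 was at 62.2 and Mcpt8 at 112 FPKM. Summed over the 28 mast cell and basophil markers, the level was 2781 FPKM in Meis1f/f 4-OHT and 579 FPKM in control 4-OHT cells. In Meis1f/f and control vehicle cells this sum was 3379 and 665 FPKM. The eosinophil list summed to 793 and 254 FPKM in Meis1f/f and control 4-OHT cells, and the erythroid list to 752 and 420 FPKM. Of these sums Ccl24, an eosinophil attractant, held 68.1 and 2.11 FPKM, and the globin entry Beta-s 226 and 25.9 FPKM. In Meis1f/f and control vehicle cells the eosinophil sums were 838 and 360 FPKM, and the erythroid sums 682 and 451 FPKM. The mast cell markers were apart between the vehicle libraries too. Under vehicle the median was -0.03 for the HIF list, -0.04 for the cholesterol list and -0.30 for the glycolysis list. Among the other cell type lists, some differed more under 4-OHT than under vehicle and some less. The dendritic list had a median of 1.35 under 4-OHT and 0.96 under vehicle. Megakaryocyte and platelet genes had medians of 0.69 under 4-OHT and 1.11 under vehicle. Dendritic cell markers summed to 465 and 199 FPKM in Meis1f/f and control 4-OHT cells, and to 301 and 228 FPKM in Meis1f/f and control vehicle cells. Of 46 monocyte and macrophage genes 8 were lower under 4-OHT against 2 under vehicle, while 11 and 12 were higher. The part of these cell types in the metabolic differences was not tested.

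Apart from HIF targets, the genes that were lower under 4-OHT and close under vehicle had varied functions. Bpil2, a protein of the lipid-binding BPI family, was at 0.559 FPKM in Meis1f/f 4-OHT and 8.16 FPKM in control 4-OHT cells, 14.6-fold lower (9.65 to 23.0), and at 11.7 and 11.4 FPKM in Meis1f/f and control vehicle cells. Nlrp3, the sensor of an inflammasome, was at 3.10 FPKM in Meis1f/f 4-OHT and 12.1 FPKM in control 4-OHT cells, 3.92-fold lower (3.39 to 4.53), and at 15.7 and 17.2 FPKM in Meis1f/f and control vehicle cells. Tmem65, a mitochondrial inner membrane protein, was at 5.25 FPKM in Meis1f/f 4-OHT and 16.6 FPKM in control 4-OHT cells, 3.16-fold lower (2.80 to 3.55), and at 19.1 and 21.2 FPKM in Meis1f/f and control vehicle cells. For Bpil2, Nlrp3 and Tmem65 the Meis1f/f 4-OHT library lay below the other 3, which lay closer together. Prelid2, of a family of lipid transfer proteins, was at 3.85 FPKM in Meis1f/f 4-OHT and 20.0 FPKM in control 4-OHT cells, 5.19-fold lower (3.86 to 7.14), and at 10.1 and 11.7 FPKM in Meis1f/f and control vehicle cells. Selenbp2 was at 1.67 and 12.3 FPKM in Meis1f/f and control 4-OHT cells, and at 7.57 and 7.86 FPKM in Meis1f/f and control vehicle cells. Selenbp2 is a near-identical copy of Selenbp1, so reads of the pair could have been split between them.

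Thbs1, the matricellular protein thrombospondin 1, had the lowest difference of the ranked genes, -4.30. It was at 20.8 FPKM in Meis1f/f 4-OHT and 427 FPKM in control 4-OHT cells, 20.5-fold lower (19.7 to 21.4). Under vehicle Thbs1 was at 521 FPKM in Meis1f/f and 362 FPKM in control cells, a difference of 0.52, just outside the limit for an absent difference and of opposite sign. Tgm2, tissue transglutaminase, was at 8.98 FPKM in Meis1f/f 4-OHT and 38.2 FPKM in control 4-OHT cells, 4.25-fold lower (3.89 to 4.65), and at 363 and 56.1 FPKM in Meis1f/f and control vehicle cells. For Tgm2 the Meis1f/f libraries were thus the highest and the lowest of the 4.

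Genes that were higher under 4-OHT and close under vehicle included chemokine and dendritic cell genes. Rbp4, the retinol carrier of plasma, was at 21.6 FPKM in Meis1f/f 4-OHT and 0.324 FPKM in control 4-OHT cells, a ratio of 66.8 (30.6 to 160), and at 1.76 and 1.52 FPKM in Meis1f/f and control vehicle cells. Fscn1, the actin bundling protein fascin of mature dendritic cells, was at 22.8 FPKM in Meis1f/f 4-OHT and 0.769 FPKM in control 4-OHT cells, a ratio of 29.7 (22.3 to 41.3), and at 1.74 and 1.14 FPKM in Meis1f/f and control vehicle cells. Both genes were above 5 FPKM in the Meis1f/f 4-OHT library and below 2 FPKM in the other 3. Cacnb3, a calcium channel subunit, was at 5.18 FPKM in Meis1f/f 4-OHT and 0.327 FPKM in control 4-OHT cells, a ratio of 15.9 (10.1 to 27.2), and at 0.400 and 0.504 FPKM in Meis1f/f and control vehicle cells. Amd1, which makes the propylamine donor of polyamine synthesis, was at 20.5 FPKM in Meis1f/f 4-OHT and 2.13 FPKM in control 4-OHT cells, a ratio of 9.64 (8.13 to 11.5), and at 0.505 and 0.661 FPKM in Meis1f/f and control vehicle cells. Amd1 was higher in both 4-OHT libraries than in both vehicle libraries, and it has near-identical copies that make its level uncertain.

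The chemokine gene Ccl5 was at 9.84 FPKM in Meis1f/f 4-OHT and 1.49 FPKM in control 4-OHT cells, a ratio of 6.62 (4.04 to 12.2), and at 1.06 and 1.22 FPKM in Meis1f/f and control vehicle cells. Ccl2, which draws monocytes, was at 23.0 FPKM in Meis1f/f 4-OHT and 8.46 FPKM in control 4-OHT cells, a ratio of 2.72 (2.24 to 3.32), and at 7.57 and 7.15 FPKM in Meis1f/f and control vehicle cells. In both cases the Meis1f/f 4-OHT library stood above the other 3. Mns1, a structural protein of flagella and cilia, was at 11.5 and 3.58 FPKM in Meis1f/f and control 4-OHT cells, and at 3.67 and 2.60 FPKM in Meis1f/f and control vehicle cells. Tmem9, a lysosomal membrane protein, was at 12.5 and 4.16 FPKM in Meis1f/f and control 4-OHT cells, and at 9.70 and 7.12 FPKM in Meis1f/f and control vehicle cells. For Tmem9, as for Tmem176b and Tmem176a, a pair of cation channel genes of dendritic cells, the control 4-OHT library was the lowest. Tmem176b was at 10.4 and 0.742 FPKM in Meis1f/f and control 4-OHT cells, and at 5.87 and 6.17 FPKM in Meis1f/f and control vehicle cells. Its difference of 2.71 was 1.45 with its 4 transcript rows summed. Tmem176a was at 8.62 and 3.11 FPKM in Meis1f/f and control 4-OHT cells, and at 5.67 and 5.30 FPKM in Meis1f/f and control vehicle cells.

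**Figure D4:**
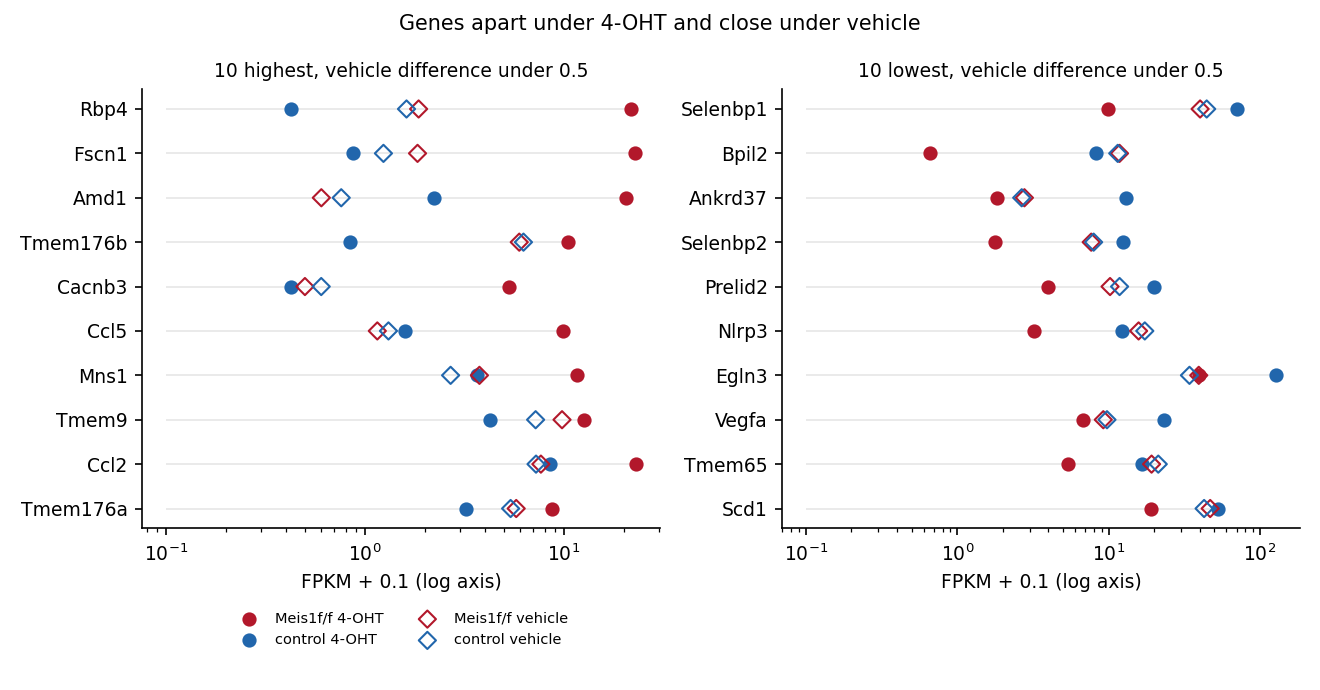
FPKM + 0.1 on a log axis in the 4 libraries for the 10 ranked genes with the largest positive and the 10 with the largest negative difference under 4-OHT whose vehicle difference was below 0.5 in size. Filled circles are 4-OHT and open diamonds vehicle, red Meis1f/f and blue control; the open points of each gene lie close together, as for Rbp4 at 1.76 and 1.52 FPKM.

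Dendritic cell genes were higher in Meis1f/f cells under 4-OHT, and 5 of these differences were absent under vehicle. Of 23 members over the floor, 17 were higher and 0 lower, with a median of 1.35. Under vehicle 11 were higher and 1 lower, with a median of 0.96. Higher in both were 9 members, and the 5 absent under vehicle were Fscn1, Tmem176b, Cacnb3, Ccl5 and Tmem176a. Members of this list were chosen with earlier results of these data known, so its counts are a description only. For Fscn1 the vehicle ratio was 1.53 (1.17 to 1.98), and with the pseudocount of 1 its vehicle difference was 0.36. Absence thus means a difference under the limit of 0.5 and not equal levels. Ccr7, the receptor that guides mature dendritic cells to lymph nodes, was at 28.0 FPKM in Meis1f/f 4-OHT and 1.74 FPKM in control 4-OHT cells, a ratio of 16.1 (12.8 to 20.6), and at 6.33 and 2.30 FPKM in Meis1f/f and control vehicle cells. Ccl17, a chemokine that attracts T cells, was at 85.8 FPKM in Meis1f/f 4-OHT and 7.43 FPKM in control 4-OHT cells, a ratio of 11.5 (9.19 to 14.6), and at 31.0 and 5.88 FPKM in Meis1f/f and control vehicle cells. Ccl22, which shares its receptor, was at 59.6 and 9.39 FPKM in Meis1f/f and control 4-OHT cells, and at 18.5 and 10.0 FPKM in Meis1f/f and control vehicle cells. Ccr7, Ccl17 and Ccl22 were highest in the Meis1f/f 4-OHT library and next highest in the Meis1f/f vehicle library. The class II presentation list did not follow, with 1 of 16 members higher and a median of 0.06 under 4-OHT, against 5 higher and a median of 0.52 under vehicle. In these bulk libraries more cells of a type and more RNA per cell cannot be told apart.

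Mast cell and basophil genes were higher in Meis1f/f cells with and without 4-OHT. Of 28 members over the floor 21 were higher and 0 lower under 4-OHT, with a median of 2.04, and 21 were higher and 0 lower under vehicle, with a median of 2.22. Higher in both were 19. Cma1, the chymase of mast cell granules, was at 47.7 FPKM in Meis1f/f 4-OHT and 1.80 FPKM in control 4-OHT cells, a ratio of 26.5 (19.5 to 36.8), and at 43.7 and 3.32 FPKM in Meis1f/f and control vehicle cells. Cpa3, the mast cell carboxypeptidase, was at 652 FPKM in Meis1f/f 4-OHT and 62.2 FPKM in control 4-OHT cells, a ratio of 10.5 (10.0 to 11.0), and at 355 and 54.2 FPKM in Meis1f/f and control vehicle cells. Mcpt8, a protease of basophils, was at 987 FPKM in Meis1f/f 4-OHT and 112 FPKM in control 4-OHT cells, a ratio of 8.83 (8.44 to 9.25), and at 1466 and 113 FPKM in Meis1f/f and control vehicle cells. Both Meis1f/f libraries stood above both control libraries for Cma1, Cpa3 and Mcpt8, and mast cell proteases form a family of close copies. Gata2, a transcription factor of mast and progenitor cells, was at 54.6 FPKM in Meis1f/f 4-OHT and 10.3 FPKM in control 4-OHT cells, a ratio of 5.31 (4.90 to 5.76), and at 105 and 16.9 FPKM in Meis1f/f and control vehicle cells. Cd200r3, an activating receptor of these cells, was at 32.8 and 2.99 FPKM in Meis1f/f and control 4-OHT cells, and at 17.1 and 2.29 FPKM in Meis1f/f and control vehicle cells.

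Eosinophil and erythroid genes showed the same order. Of 11 eosinophil members 8 were higher and 0 lower under 4-OHT, with a median of 1.53, and all 8 were also higher under vehicle, where the median was 1.19. Ccl24, the eosinophil attractant eotaxin-2, had the highest difference of the ranked genes, 4.47. It was at 68.1 FPKM in Meis1f/f 4-OHT and 2.11 FPKM in control 4-OHT cells, a ratio of 32.2 (25.0 to 42.7), and at 44.3 and 10.4 FPKM in Meis1f/f and control vehicle cells. Ear11, a secreted ribonuclease of a family with close copies, was at 32.0 and 1.43 FPKM in Meis1f/f and control 4-OHT cells, and at 18.4 and 2.44 FPKM in Meis1f/f and control vehicle cells. Of 22 erythroid members 13 were higher and 0 lower under 4-OHT, with a median of 1.63, and all 13 were also higher under vehicle, where the median was 1.19. Hbb-b1, an adult beta globin, was at 47.4 FPKM in Meis1f/f 4-OHT and 4.43 FPKM in control 4-OHT cells, a ratio of 10.7 (8.27 to 14.3), and at 42.6 and 11.2 FPKM in Meis1f/f and control vehicle cells. Hba-a1, an alpha globin, was at 17.0 and 0.468 FPKM in Meis1f/f and control 4-OHT cells, and at 15.2 and 2.20 FPKM in Meis1f/f and control vehicle cells. Beta-s, a further beta globin entry, was at 226 and 25.9 FPKM in Meis1f/f and control 4-OHT cells, and at 195 and 83.2 FPKM in Meis1f/f and control vehicle cells. The globin copies are near-identical, so their separate levels are uncertain. For each of the 3 globins the control 4-OHT library was lowest. Car1, a carbonic anhydrase of red cells, was at 5.28 FPKM in Meis1f/f 4-OHT cells with no read estimated for its main row in control 4-OHT cells. Against a floor of 3 reads in that library it was at least 46.6-fold higher, and with its 2 rows summed the difference was 1.77. Gata1, the transcription factor that directs erythroid, mast cell and eosinophil fates, was at 12.3 FPKM in Meis1f/f 4-OHT and 2.24 FPKM in control 4-OHT cells, a ratio of 5.46 (4.33 to 6.93), and at 19.8 and 2.82 FPKM in Meis1f/f and control vehicle cells.

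**Figure D5:**
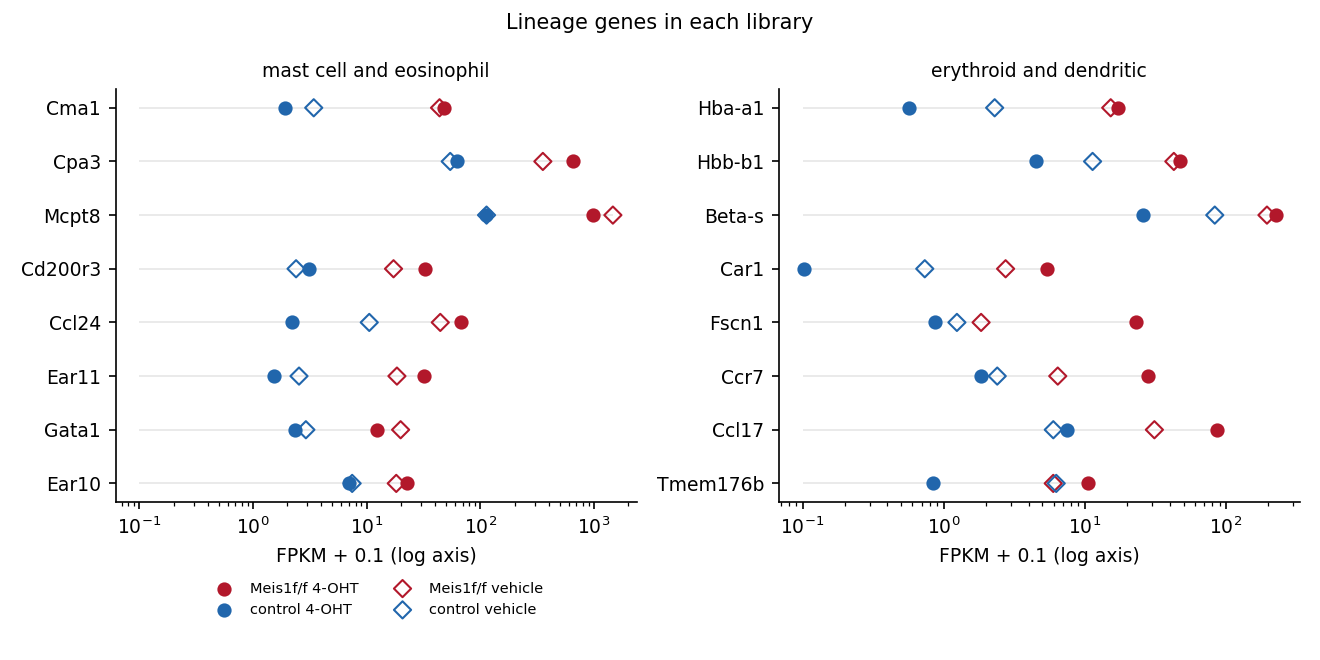
FPKM + 0.1 on a log axis in the 4 libraries for genes of the mast cell, eosinophil, erythroid and dendritic lists. Filled circles are 4-OHT and open diamonds vehicle, red Meis1f/f and blue control; for Cma1, at 47.7 FPKM in Meis1f/f 4-OHT and 1.80 FPKM in control 4-OHT cells, both red points lie to the right of both blue points, while Fscn1 has 1 red point apart.

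Megakaryocyte and platelet genes were mixed, with 5 of 18 members higher and 2 lower under 4-OHT (median 0.69), against 10 higher and 0 lower under vehicle (median 1.11). F2r, the thrombin receptor PAR1, was at 43.6 FPKM in Meis1f/f 4-OHT and 6.06 FPKM in control 4-OHT cells, a ratio of 7.19 (6.50 to 7.96), and at 81.9 and 9.43 FPKM in Meis1f/f and control vehicle cells. The 2 lower members were Thbs1 and the platelet chemokine gene Pf4. Stem and progenitor markers had 5 of 23 members higher and 0 lower, with a median of 0.25. Cd34, a sialomucin of progenitor cells, was at 11.7 and 2.01 FPKM in Meis1f/f and control 4-OHT cells, and at 9.40 and 4.91 FPKM in Meis1f/f and control vehicle cells. With its 2 transcript rows summed Cd34 was at 20.3 and 6.78 FPKM in Meis1f/f and control 4-OHT cells, so its difference was 1.45 and not 2.07, and the vehicle difference was 0.39 and not 0.82, which is absent under vehicle. Angpt1, a ligand of the TIE2 receptor, was at 11.7 and 2.79 FPKM in Meis1f/f and control 4-OHT cells, and at 10.5 and 3.54 FPKM in Meis1f/f and control vehicle cells. Cd34 and Angpt1 were higher in both Meis1f/f libraries than in both control libraries.

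Monocyte and macrophage genes were called in both directions. Of 46 members 11 were higher and 8 lower under 4-OHT, with a median of 0.19, against 12 higher and 2 lower under vehicle, with a median of 0.37. F13a1, the A chain of coagulation factor XIII, was at 37.5 FPKM in Meis1f/f 4-OHT and 284 FPKM in control 4-OHT cells, 7.56-fold lower (7.26 to 7.87), and at 115 and 237 FPKM in Meis1f/f and control vehicle cells. Ms4a6c, a membrane protein of monocytes, was at 2.76 FPKM in Meis1f/f 4-OHT and 13.3 FPKM in control 4-OHT cells, 4.83-fold lower (3.89 to 6.11), and at 1.14 and 10.3 FPKM in Meis1f/f and control vehicle cells. Both were lower in Meis1f/f cells in both comparisons. Clec7a, the beta-glucan receptor dectin-1, was at 50.6 FPKM in Meis1f/f 4-OHT and 9.97 FPKM in control 4-OHT cells, a ratio of 5.07 (4.6 to 5.6), and at 57.9 and 13.2 FPKM in Meis1f/f and control vehicle cells. Cd36, a scavenger receptor, was at 11.1 and 1.79 FPKM in Meis1f/f and control 4-OHT cells, and at 6.54 and 0.422 FPKM in Meis1f/f and control vehicle cells. Clec7a and Cd36 were higher in Meis1f/f cells in both comparisons.

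The 2 lists of neutrophil granule genes each held members above and below 0. Of 28 genes of secondary and tertiary granules 7 were higher and 0 lower under 4-OHT, with a median of 0.32, 20 members above 0 and 8 below. Of 17 primary granule and early granulocyte genes 0 were higher and 1 lower, with a median of -0.12, 6 members above 0 and 11 below. Under vehicle the medians were 0.68 and -0.48. Chi3l3, the chitinase-like protein Ym1, was at 3850 FPKM in Meis1f/f 4-OHT and 305 FPKM in control 4-OHT cells, a ratio of 12.6 (12.4 to 12.9), and at 2620 and 259 FPKM in Meis1f/f and control vehicle cells. Its close copy Chi3l4 was at 63.8 and 5.21 FPKM in Meis1f/f and control 4-OHT cells, and reads of the 2 genes could have been split between them. Slpi, an inhibitor of neutrophil elastase, was at 451 and 117 FPKM in Meis1f/f and control 4-OHT cells, and at 485 and 160 FPKM in Meis1f/f and control vehicle cells. Fcnb, a lectin of granulocyte precursors, was at 17.7 FPKM in Meis1f/f 4-OHT and 42.5 FPKM in control 4-OHT cells, 2.40-fold lower (2.12 to 2.72), and at 29.7 and 33.3 FPKM in Meis1f/f and control vehicle cells, so this difference was absent under vehicle. Outside these lists, Anpep, a surface aminopeptidase of myeloid cells, was at 44.8 and 4.09 FPKM in Meis1f/f and control 4-OHT cells, and at 28.3 and 3.91 FPKM in Meis1f/f and control vehicle cells. Pga5, a pepsinogen, was at 20.5 and 1.07 FPKM in Meis1f/f and control 4-OHT cells, and at 24.0 and 1.51 FPKM in Meis1f/f and control vehicle cells.

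Genes of other cell types were few over the floor. Of 37 T, B and NK cell markers 9 reached 1 FPKM in a library, and 3 of these were higher and 1 lower under 4-OHT. Gzmb, granzyme B, which mast cells also express, was at 122 and 16.8 FPKM in Meis1f/f and control 4-OHT cells, and at 112 and 32.1 FPKM in Meis1f/f and control vehicle cells. Cd3g, at 45 and 6 estimated reads in Meis1f/f and control 4-OHT cells, was higher under vehicle too, at 2.11 FPKM in Meis1f/f vehicle cells and listed at 0 in control vehicle cells. Il7r was at 10.7 and 2.16 FPKM in Meis1f/f and control 4-OHT cells, and Cd79b at 1.34 and 4.95 FPKM. The summed level of the list was 200.5 FPKM in Meis1f/f 4-OHT and 100.0 FPKM in control 4-OHT cells. Gzmb alone held 122 and 16.8 FPKM of these sums, and without it the sum was not higher in Meis1f/f 4-OHT cells. Over the 9 members the median difference under 4-OHT was 0.33, with 6 members above 0 and 3 below. Of 31 stromal, endothelial and epithelial markers 10 reached the floor and 3 were higher. Epcam, an epithelial adhesion molecule, was at 7.53 and 0.745 FPKM in Meis1f/f and control 4-OHT cells, and at 11.7 and 0.776 FPKM in Meis1f/f and control vehicle cells. Cdh1, of the same list, was at 43.2 and 18.7 FPKM in Meis1f/f and control 4-OHT cells. In Meis1f/f and control vehicle cells Cdh1 was at 52.0 and 11.9 FPKM, so it was higher in both comparisons. Pecam1 was between 19.2 and 34.3 FPKM over the 4 libraries. Col1a1 and Krt8, by contrast, were below 0.1 FPKM in every library.

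Genes of the HOXA and MEIS1 programme showed few calls under 4-OHT, with 1 of 24 members higher, 1 lower and a median of 0.03. Under vehicle 4 were higher and 5 lower, with a median of -0.36. Hoxa9, the partner of MEIS1 (chosen after its values were seen), was at 17.8 FPKM in Meis1f/f 4-OHT and 27.1 FPKM in control 4-OHT cells, a ratio of 0.656 (0.599 to 0.718), and at 12.2 and 31.3 FPKM in Meis1f/f and control vehicle cells. Hoxa9 was thus lower in both Meis1f/f libraries, and the difference met the size rule under vehicle and not under 4-OHT. Mecom, a transcription factor of leukaemic stem cells, was at 4.08 and 1.21 FPKM in Meis1f/f and control 4-OHT cells, and at 6.60 and 2.23 FPKM in Meis1f/f and control vehicle cells. Among 36 myeloid transcription factors 5 were higher and 1 lower, with a median of 0.16. The lower member, Klf2, a factor of quiescent leukocytes, was at 5.67 FPKM in Meis1f/f 4-OHT and 17.8 FPKM in control 4-OHT cells, 3.14-fold lower (2.68 to 3.71), and at 11.0 and 6.98 FPKM in Meis1f/f and control vehicle cells. Among the higher members, Relb, Batf3 and Egr2 had differences from 1.14 to 1.24.

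Several of the lowest genes were low in both Meis1f/f libraries. Mid1, a microtubule-associated ubiquitin ligase, was at 1.30 FPKM in Meis1f/f 4-OHT and 17.0 FPKM in control 4-OHT cells, 13.1-fold lower (10.6 to 16.4), and at 3.11 and 18.6 FPKM in Meis1f/f and control vehicle cells. Hebp1, a haem-binding protein, was at 3.51 FPKM in Meis1f/f 4-OHT and 29.4 FPKM in control 4-OHT cells, 8.36-fold lower (6.55 to 11.0), and at 2.68 and 23.2 FPKM in Meis1f/f and control vehicle cells. Csn2, the milk protein beta-casein, was at 3.74 FPKM in Meis1f/f 4-OHT and 19.0 FPKM in control 4-OHT cells, 5.10-fold lower (4.00 to 6.57), and at 2.72 and 48.0 FPKM in Meis1f/f and control vehicle cells. Xlr, of an X-linked family of close copies, was at 0.358 and 5.66 FPKM in Meis1f/f and control 4-OHT cells, and at 0.119 and 5.83 FPKM in Meis1f/f and control vehicle cells. Gpx3, an extracellular glutathione peroxidase, had no read estimated in Meis1f/f 4-OHT cells and was at 4.29 FPKM in control 4-OHT cells. It was at least 40.1-fold lower against a floor of 3 reads in the Meis1f/f library, and at 1.23 and 5.92 FPKM in Meis1f/f and control vehicle cells. For these genes both control libraries stood above both Meis1f/f libraries.

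Some cytokine genes were higher in Meis1f/f cells. Of 32 NF-kB targets and inflammatory cytokines 11 were higher and 1 lower under 4-OHT, with a median of 0.38, and 12 were higher and 0 lower under vehicle, with a median of 0.77. Il6 was at 36.1 FPKM in Meis1f/f 4-OHT and 3.44 FPKM in control 4-OHT cells, a ratio of 10.5 (8.35 to 13.3), and at 86.3 and 4.31 FPKM in Meis1f/f and control vehicle cells. IL-6 was also a component of the medium. Lif, a cytokine of the same family, was at 6.03 and 1.07 FPKM in Meis1f/f and control 4-OHT cells, and at 7.74 and 0.606 FPKM in Meis1f/f and control vehicle cells. Cd83, a marker of activated dendritic cells, was at 9.48 and 0.652 FPKM in Meis1f/f and control 4-OHT cells, and at 4.71 and 0.867 FPKM in Meis1f/f and control vehicle cells. Il6, Lif and Cd83 were higher in both Meis1f/f libraries than in both control libraries. Of 24 chemokines and their receptors 11 were higher and 1 lower under 4-OHT, with a median of 0.92, against 8 higher and 0 lower with a median of 0.58 under vehicle. Among 26 receptors and feedback genes of the culture cytokines 6 were higher and 0 lower, with a median of 0.39. Csf2rb2, the mouse-specific beta subunit of the IL-3 receptor, was at 126 FPKM in Meis1f/f 4-OHT and 30.2 FPKM in control 4-OHT cells, a ratio of 4.16 (3.99 to 4.33), and at 159 and 28.4 FPKM in Meis1f/f and control vehicle cells. Of 15 eicosanoid genes 3 were higher. Alox5, which starts leukotriene synthesis, was at 99.5 and 27.6 FPKM in Meis1f/f and control 4-OHT cells, and at 106 and 20.8 FPKM in Meis1f/f and control vehicle cells. Of 28 interferon-stimulated genes 0 were higher and 1, Gbp3, was lower, with a median of 0.15.

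Among 30 p53 targets and CDK inhibitors 8 were higher and 0 lower under 4-OHT, with a median of 0.21, and 6 of the 8 were also higher under vehicle, where the median was 0.48. Cdkn2b, an inhibitor of CDK4 and CDK6, was at 7.11 FPKM in Meis1f/f 4-OHT and 0.507 FPKM in control 4-OHT cells, a ratio of 14.04 (8.22 to 24.5), and at 13.1 and 0.954 FPKM in Meis1f/f and control vehicle cells. Cdkn2a, the locus of p16 and ARF, was at 9.78 and 2.22 FPKM in Meis1f/f and control 4-OHT cells, and at 4.42 and 2.05 FPKM in Meis1f/f and control vehicle cells. Perp, a p53 target of cell junctions, was at 30.9 and 6.21 FPKM in Meis1f/f and control 4-OHT cells, and at 43.2 and 7.54 FPKM in Meis1f/f and control vehicle cells. These 3 genes were higher in Meis1f/f cells in both comparisons, Cdkn2a by less than the size rule under vehicle. Cell division genes differed little in size under 4-OHT. Of 44 replication genes 0 met the size rule (median -0.14, 35 below 0). Of 39 mitosis genes 1 was higher, the securin gene Pttg1 (median -0.18, 36 below 0). Of 56 ribosomal protein genes 0 met the size rule (median 0.03). Under vehicle these medians were -0.42, -0.49 and -0.29, with 5, 1 and 1 members lower and 0 higher. Heat shock chaperones (12 genes, median 0.01) and the BCL2 family (15 genes, median 0.32) had 0 members past the rule under 4-OHT. Under vehicle their medians were -0.53 and 0.39, with 0 and 4 members higher and 0 lower. Of 32 NRF2 targets and antioxidant enzymes 2 were higher and 1 lower, with a median of 0.09, the higher ones being Nqo1, a quinone reductase, and Blvrb, a biliverdin reductase. Blvrb was also the 1 higher member among 23 iron and haem genes (median 0.03). Immediate early genes had 5 higher and 2 lower members of 31 under 4-OHT (median 0.30), against 11 higher and 0 lower under vehicle (median 0.68). Fosl1, a subunit of AP-1, was at 0.613 and 3.38 FPKM in Meis1f/f and control 4-OHT cells, and at 1.41 and 0.922 FPKM in Meis1f/f and control vehicle cells, so its difference was absent under vehicle.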

How the data were processed

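RNA sequencing of 4 libraries, 1 per group, was taken from deposited tables of 28107 transcript rows each. Bowtie was the aligner and mm8 a build used, per the submitters' processing notes. Versions, annotation, strandedness and the program behind the values are not stated. FPKM values were computed by the authors per kilobase and per M mapped fragments, per the file headers. Mean read depth per base stands in a coverage (signal) column that the authors deposited beside it. The build of the deposited coordinates could not be settled.

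Rows marked OK in all libraries were kept, and 394 were not. For each symbol the row highest in mean FPKM was used, and 2323 of the 10922 genes had more than 1 row. Differences are in log2(FPKM + 1), with a pseudocount of 1, which understates those of low genes. Coverage divided by FPKM was constant within a file. Coverage times length of low genes peaked at about 45 bases (medians of 44.8 or 45.3), taken as 1 read, with troughs in the 20 to 30 and 60 to 70 base bins, and this gave depth and reads. Values were not whole reads, so no count test was run. Intervals are 95% exact (Clopper-Pearson) binomial intervals of the ratio of estimated reads, and the floor is 3 reads per library; both cover counting error only, and PCR copies are not independent molecules. The size rule was tested on simulated data.

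Samples were grouped by their titles. Members, lists (35) and rules were chosen with earlier results of these data known. Named are Meis1, Hlf, Mll1 and Esr1; the 15 highest and 15 lowest genes under 4-OHT with at least 5 FPKM in a 4-OHT library whose difference also met the size rule with rows summed; likewise the 10 highest and 10 lowest absent under vehicle; and up to 4 members per list past the size rule, or the 2 largest where none passed. Pseudogene copies, small RNAs and unnamed gene models were not ranked. List symbols were matched also through RefSeq synonyms. Promoter windows came from RefSeq (GRCm38.p6) by symbol, and the 50 bases after the start were not used. Alternatives changed the pseudocount, floor, transcript choice, scaling, row status and the limit for an absent difference; removal of the length trend (medians of 20 length bins) was added after seeing the data. A few genes that the rules name are not reported here. Python 3.11.15, pandas 2.3.3 and scipy 1.17.1 were used.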

Additional observations from a re-analysis of the deposited data

Results flagged for a closer look

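Genes named here met the size rule in opposite directions under 4-OHT and under vehicle, and whether these differences differ could not be tested with 1 library per group. Tgm2 had a log2 difference of -1.97 under 4-OHT and 2.67 under vehicle, and Trib3 had -1.33 and 1.52. Samd5, at 0.143 FPKM in Meis1f/f 4-OHT and 3.83 FPKM in control 4-OHT cells, had -2.08, and at 12.6 and 4.19 FPKM in Meis1f/f and control vehicle cells it had 1.39. Neat1, a long noncoding RNA of nuclear paraspeckles, had -1.09 under 4-OHT and 1.10 under vehicle. Armcx2 had 1.49 under 4-OHT and -1.27 under vehicle on its main row, but 0.30 and 0.05 with its 3 rows summed. The Meis1f/f vehicle library, in lane 1, was the highest of the 4 for Tgm2, Trib3 and Samd5. Samd5, Neat1 and Armcx2 were chosen after their values were seen.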

How the results depend on the processing

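With a pseudocount of 0.1 there were 646 genes higher and 338 lower under 4-OHT, 1052 higher and 398 lower under vehicle, 470 higher and 108 lower in both, and 102 lower and absent under vehicle. With a pseudocount of 5 there were 150 higher and 51 lower under 4-OHT, and 237 higher and 55 lower under vehicle. In both comparisons 104 were then higher and 11 lower, and 12 higher and 25 lower were absent under vehicle. Of the 54 higher and 64 lower genes reported as absent under vehicle, 41 and 53 stayed so with a pseudocount of 0.1. With a pseudocount of 5, 8 and 20 did. With a floor of 5 FPKM there were 262 higher and 106 lower under 4-OHT, 28 higher and 33 lower that were absent under vehicle, and 31 lower in both. Among symbols with 1 transcript row 33 genes were higher and absent under vehicle. An absent limit of 0.25 left 32 higher genes, and a limit of 1 gave 134 higher and 122 lower. The other 60 of 84 counts stayed within 1.5 times the value reported, those of both rescalings and of the removed length trend included. Of 350 list medians, 345 moved little and 5 moved. The median of the HOXA and MEIS1 list, 0.03 as reported, was -0.12 with transcript rows summed and -0.13 among symbols with 1 row, and no other list median changed sign. No named gene past the size rule (102) changed sign under any alternative run, but with a pseudocount of 5 only 74 of the 102 met it, so calls of low genes depend on that choice. Depth limits genes near 1 FPKM most in the Meis1f/f 4-OHT library, the shallowest. No paired analysis was possible because each group had 1 library.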
